A study of Mus musculus with 17 samples.

Results

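Interferon-stimulated genes were followed as a set of 37 genes, picked by name among the 55335 genes counted in every library. The set holds signalling and transcription factors (Irf1, Irf7, Irf9, Stat2), RNA sensors (Ifih1, Ddx58, Dhx58, Zbp1), the IFIT proteins (Ifit1, Ifit2, Ifit3, Ifit3b), the OAS family (Oas1a, Oas2, Oas3, Oasl1, Oasl2) and the ISG15 system (Isg15, Usp18). It also holds GTPases (Mx1, Mx2, Gbp2, Gbp3, Gbp7), enzymes acting on nucleotides or translation (Rsad2, Cmpk2, Eif2ak2), membrane and secreted effectors (Bst2, Ifitm3, Lgals3bp, Ifi27), PARP and TRIM proteins (Parp9, Parp14, Trim30a) and Ifi44, Xaf1 and Rtp4.

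The data are bulk RNA sequencing of skeletal stem cells (SSCs) and osteoblast/osteocyte progenitor cells (OPCs) sorted from mouse bone. The animals were female littermates aged 8 to 12 weeks, either wild type (WT), heterozygous (+/1013) or homozygous (1013/1013) for a knock-in allele of Cxcr4. Cxcr4 encodes the receptor of the chemokine CXCL12, and the 1013 allele shortens its tail and gives a gain of function, as in human WHIM syndrome. Each of the 17 libraries came from cells pooled from 3 mice, with 3 libraries per cell type and genotype, except 2 of 1013/1013 SSCs. Both populations were gated as CD45- TER119- CD31- CD51+, SSCs as Sca-1+ PDGFRα+ and OPCs as Sca-1- with or without PDGFRα. The mutation is in every cell of the body in these mice, so the genotype comparisons are not restricted to the skeletal lineage. P-values measure the spread between pools, each of which averages 3 animals.

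Interferon-stimulated genes are the genes that cells switch on when interferon reaches them. Type I interferons bind a receptor made of IFNAR1 and IFNAR2, whose kinases JAK1 and TYK2 activate transcription factors. STAT2 and IRF9 belong to the complex that binds the interferon-stimulated response element (ISRE) in promoters, whereas interferon gamma acts mainly through the gamma-activated site (GAS). The products sense foreign RNA, degrade it, block its translation or hold viruses at membranes. In bone, interferons are known as restraints on osteoclast formation, and several kinds of stem cell are known to hold some of these genes, the Ifitm genes among them, at a basal level.

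The libraries held 64099849 to 92683497 counts on genes in OPCs and 44217695 to 50509592 in SSCs, so that a limit of 3 counts corresponded to 0.0324 to 0.0468 CPM (counts scaled to library size) in OPCs and 0.0594 to 0.0678 CPM in SSCs, for counting error only. Both markers that separate the gates were higher in SSCs: Ly6a, which encodes Sca-1, lay at 530 to 1789 CPM in SSCs and at most 11.8 CPM in OPCs, and Pdgfra at 363 to 608 CPM against 52.2 to 115 CPM. Of the 7 sorting markers listed, 6 lay above 0 in WT SSCs against OPCs and 3 in each mutant, and in 1013/1013 Itgav, which encodes CD51, was called lower in SSCs (log2 fold change -1.10, edgeR adjusted p = 0.0457), as was Tfrc, the transferrin receptor gene (-2.00, 0.0446). The summed level of 7 osteoblast-lineage genes was 96756 to 236092 CPM in OPCs, 13774 to 18647 CPM in WT SSCs and 4854 to 8592 CPM in mutant SSCs. WT SSC libraries also stood apart in the reads that fell on no gene (3.68% to 4.15%, against at most 2.69% in mutant SSCs) and in genes with a count (21449 to 22599 against 15748 to 19227). No label names a batch, so that batch and group cannot be told apart.

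Despite the CD45- gate, 3 libraries carried many leukocyte transcripts. The summed level of 20 leukocyte genes was 19480 CPM in WT OPC library 3, 16249 CPM in 1013/1013 OPC library 2 and 14759 CPM in WT SSC library 3, with 0 to 3 of the 20 genes at 0 in these libraries. It was 43.8 to 455 CPM in the other 7 OPC libraries and 45.8 to 1364 CPM in the other 7 SSC libraries, with 2 to 6 genes at 0. Several of the 37 genes were high in the same libraries. Oas3, which makes the 2-5A messenger that activates RNase L, stood at 6.78, 17.9 and 9.1 CPM in the 3 libraries, at 0.653 CPM in 1013/1013 SSC library 2, at 0.078 CPM in +/1013 OPC library 1 and at 0 elsewhere. Oas1a, of the same family, stood at 3.69, 4.12 and 10.4 CPM in them. Among the other OPC libraries the highest Oas1a level was 0.357 CPM, but +/1013 SSC library 1, with few leukocyte transcripts, reached 3.99 CPM.

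**Figure D1:**
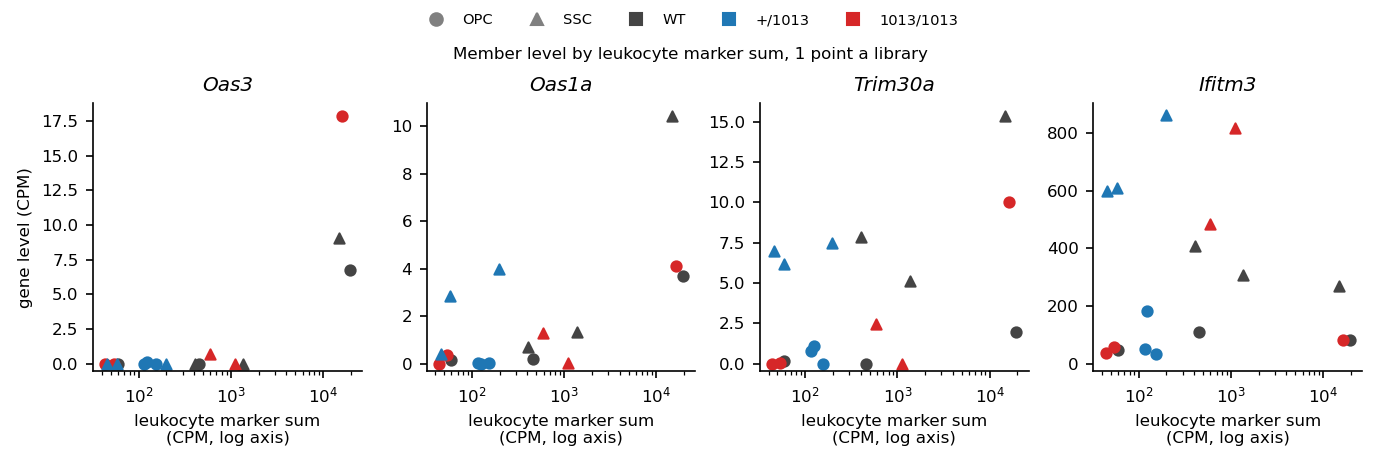
Level of Oas3, Oas1a, Trim30a and Ifitm3 in each library (CPM, vertical) against the summed level of 20 leukocyte genes (CPM, horizontal, log scale), with 1 point per library. Oas3 is highest in the 3 libraries with leukocyte sums of 14759 to 19480 CPM, whereas Ifitm3 is highest in mutant SSC libraries, whose sums are at most 1113 CPM.

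In OPCs, both leukocyte-rich libraries exceeded all 7 others for 7 of the 35 members that reached 10 counts (20%), against 7.37% of all genes: Dhx58, Oas1a, Oas3, Parp14, Parp9, Rtp4 and Trim30a. In SSCs the single rich library was the highest of 8 for 16 of 37 members (43.2%), against 19.5% of genes, among them Irf7, Stat2, Rsad2, Mx1, Ifih1, Ddx58 and all 5 members of the OAS family. Summed plasmacytoid dendritic cell markers, the cells known as the strongest source of type I interferon, reached 33.4 CPM in that SSC library and at most 6.07 CPM in any OPC library. The part of these cells in the results below was not tested. Values without the 3 libraries are given beside the counts and the named members that moved.

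**Figure D2:**
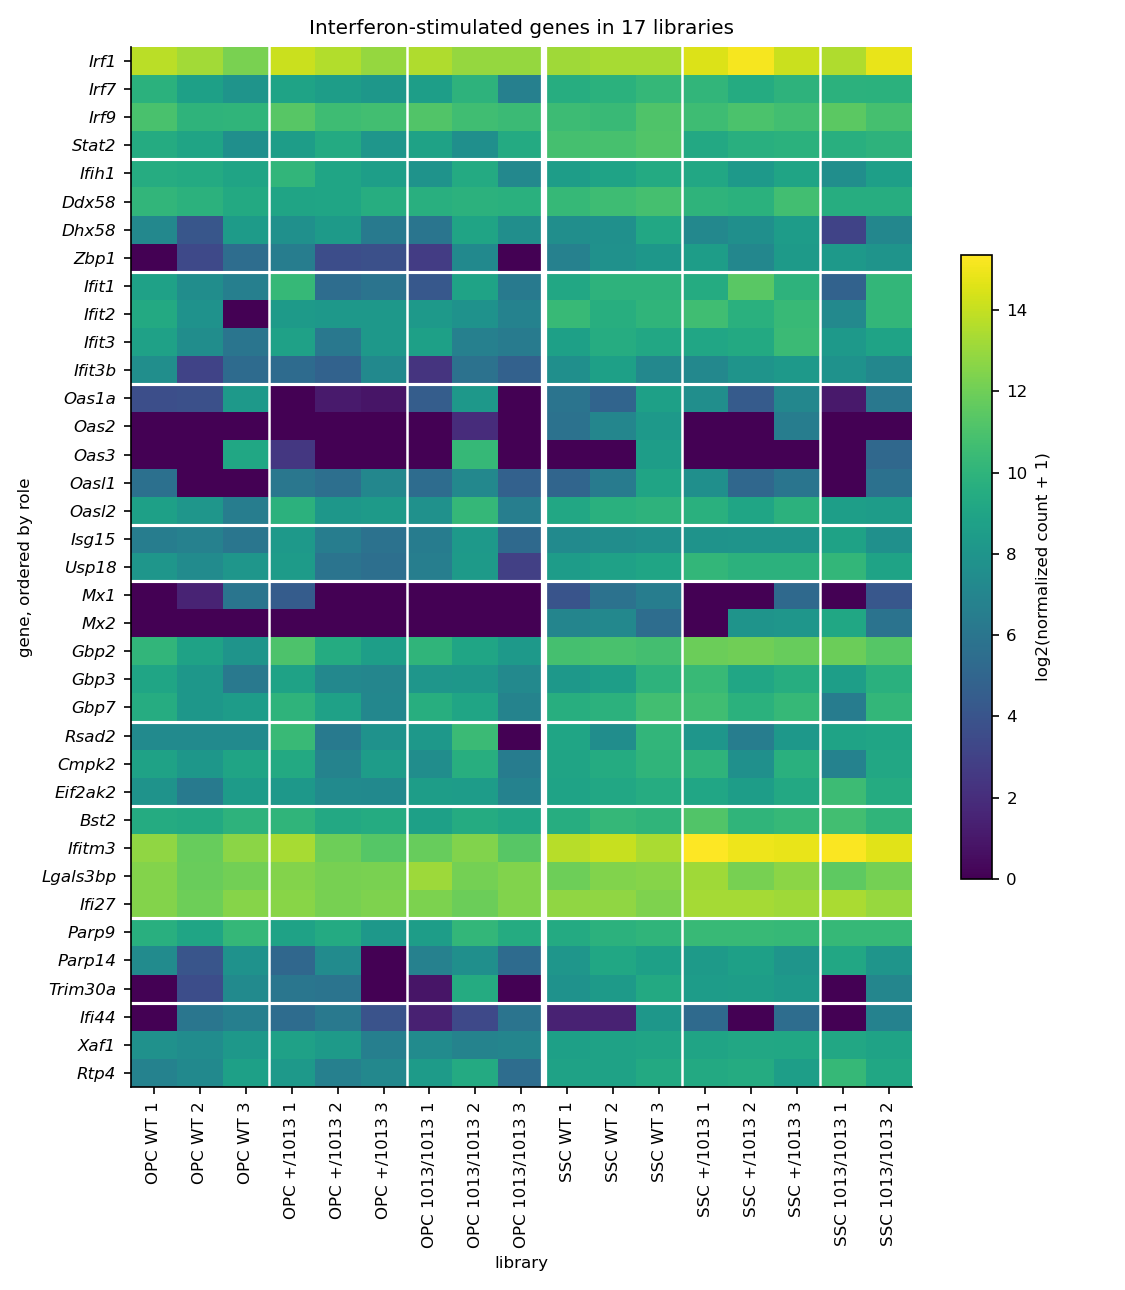
Expression of the 37 genes in the 17 libraries as log2 of the normalized count plus 1 (color), with genes in rows grouped by role and libraries in columns grouped by cell type and genotype. Ifitm3, Irf1, Ifi27 and Lgals3bp are the brightest rows in both cell types, and Oas2, Oas3, Mx1 and Mx2 are empty in most OPC libraries.

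Few of the genes made up most of the signal. The 37 genes together took 361 to 999 CPM of an OPC library and 1154 to 2262 CPM of an SSC library, with no overlap, and Ifitm3, Irf1, Ifi27 and Lgals3bp held 56.5% to 77.8% of these counts in OPCs and 54.9% to 78.8% in SSCs. Per length of exon, in RPKM (reads scaled to exon length and library size), the order in OPCs began with Ifitm3 at a median of 86.5 (47.3 to 267), lowest to highest library. Ifi27 followed at 50.3 (37.6 to 73.7), Irf1 at 32.2 (15 to 76.9) and Lgals3bp at 22.7 (17.7 to 50.2) RPKM. The ranges of neighbours in this order overlap, so that their order is not separated beyond the spread between libraries. Ifitm3 encodes a membrane protein that blocks virus entry, Ifi27 a small interferon-induced membrane protein, Irf1 a transcription factor and Lgals3bp a secreted galectin-binding protein.

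In SSCs the first 4 were the same genes, and Ifitm3 stood clear of the rest at 799 (399 to 1273) RPKM. Ifi27 reached 121 (90.8 to 155), Irf1 78.1 (52.4 to 173) and Lgals3bp 38.7 (22.3 to 65.2) RPKM, and here too the ranges of neighbours overlap. Bst2, which encodes tetherin, a protein that holds budding virus at the cell surface, came next at 28.4 (18.7 to 52.4) RPKM. At the other end, Oas2, Oas3, Mx1 and Mx2 had a median of 0 in OPCs, and in SSCs Oas3 (0), Ifi44 (0.07), Mx1 (0.09) and Oas2 (0.14 RPKM) were lowest. Mx1 and Mx2 encode dynamin-like GTPases against viruses, and Oas2 another 2-5A synthetase. Both Mx genes are known to carry defective alleles in many laboratory strains, and GENCODE M21 lists Mx2 as a polymorphic pseudogene, so its counts are a transcript level and need not stand for a protein. A count was seen for 29 to 35 members in an OPC library and for 31 to 37 in an SSC library.

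The members also shifted as a set from library to library. Against the WT mean of the cell type, +/1013 OPC library 1 was higher for 28 of 33 members (84.8%, against 53.0% of genes), with a median deviation of 1.00 on the log2 scale (0.05 over all genes). WT library 1 and 1013/1013 library 2 were each higher for 25 of 33 (75.8%, against 53.6% and 55.4% of genes), at medians of 0.39 and 0.55, and 1013/1013 library 3 was lowest, higher for 8 of 33 (24.2%, against 50.1%) at a median of -0.85. In SSCs, WT library 3 was higher for 32 of 37 (86.5%, against 48.2% of genes) at 0.30 and WT library 1 for 4 of 37 (10.8%, against 49.1%) at -0.38. Among these, WT SSC library 3 and 1013/1013 OPC library 2 are leukocyte-rich. The leukocyte sum of +/1013 OPC library 1 was 125 CPM, but it stood above the other libraries of its group in reads aligned to several places (10.4%, against 7.75% and 7.96%), in reads on no gene (2.19%, against 1.15% and 1.24%) and in the summed levels of dissociation-stress genes (18065 CPM, against 7305 and 9440), erythroid genes (939 CPM, against 146 and 89.4) and endothelial genes (97.5 CPM, against 31.8 and 19.3). The part of these in its members' levels was not tested.

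The ligands were nearly silent. Of 21 interferon genes, 16 had no count in any library and 3 exceeded 3 counts in some library. Ifnb1, the gene of interferon beta, had counts in WT SSC library 3 alone (43), and Ifng, of interferon gamma, reached at most 15 counts, in the same library. Ifnz was counted in 9 libraries with at most 10 counts.

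Promoter sequence was available for 27 of the 37 genes (RefSeq, GRCm38.p6). The letters of the ISRE core, GAAA repeated after any 2 bases (or, on the other strand, TTTC repeated in the same way), stood within the 250 bases before the start in 13 of the 27 (48.1%), against 936 of 27025 genes with an entry (3.46%). The GAS letters, TTC and GAA with any 3 bases between them, which read the same on both strands, stood in 6 of 27 (22.2%), against 8.13% of genes. Matches of 1 motif may overlap each other. These 13 were Bst2, Gbp2, Gbp3, Gbp7, Ifit1, Ifit3, Ifit3b, Isg15, Oas1a, Oas3, Rsad2, Stat2 and Trim30a. A gene with several starts was counted if any of them had a match. A match is a run of letters and not a measured binding site.

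The following promoters belong to the 4 genes on which the SSC results turn, read 5′ to 3′ on the strand of the gene, with capitals for the ISRE letters in Stat2 and Gbp2, and for the GAS letters in Irf1, and no capitals in Ifitm3, whose 250 bases hold no ISRE match. Stat2 (ENSMUSG00000040033.16, gene body chr10:128270559-128292849, plus strand, window chr10:128270248-128270497) holds a match 213 bases before its start. Gbp2 (ENSMUSG00000028270.12, chr3:142620602-142638008, plus strand, window chr3:142620413-142620662) holds it 50 bases before its RefSeq start, but past the start of the GENCODE gene body. Irf1 (ENSMUSG00000018899.16, chr11:53770014-53778374, plus strand, window chr11:53769764-53770013) holds a GAS match 82 bases before its first RefSeq start. The window of another RefSeq start of Irf1 (chr11:53770223-53770472) holds neither motif, and the window with the match was the one printed. Ifitm3 (ENSMUSG00000025492.6, chr7:141009586-141010770) lies on the minus strand with the window chr7:141010745-141010994. Gene bodies are from GENCODE M21 and windows from RefSeq starts.
Stat2: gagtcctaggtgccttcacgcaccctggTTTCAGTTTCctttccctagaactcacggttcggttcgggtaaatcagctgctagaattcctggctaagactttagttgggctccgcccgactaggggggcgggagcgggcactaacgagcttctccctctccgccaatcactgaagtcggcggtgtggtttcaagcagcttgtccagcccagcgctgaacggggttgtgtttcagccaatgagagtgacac
Gbp2: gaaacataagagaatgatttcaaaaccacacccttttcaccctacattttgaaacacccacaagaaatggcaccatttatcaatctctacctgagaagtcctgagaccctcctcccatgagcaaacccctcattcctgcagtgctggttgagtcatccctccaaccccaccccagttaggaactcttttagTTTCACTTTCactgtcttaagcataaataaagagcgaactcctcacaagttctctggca
Irf1: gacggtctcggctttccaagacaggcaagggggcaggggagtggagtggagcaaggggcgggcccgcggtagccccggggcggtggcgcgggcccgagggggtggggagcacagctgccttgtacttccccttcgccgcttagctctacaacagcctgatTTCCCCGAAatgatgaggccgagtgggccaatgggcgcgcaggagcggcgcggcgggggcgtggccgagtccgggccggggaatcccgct
Ifitm3: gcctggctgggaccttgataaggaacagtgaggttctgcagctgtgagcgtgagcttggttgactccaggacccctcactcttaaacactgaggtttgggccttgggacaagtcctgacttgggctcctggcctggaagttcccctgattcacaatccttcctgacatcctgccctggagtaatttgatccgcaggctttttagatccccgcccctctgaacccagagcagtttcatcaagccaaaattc

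Shorter stretches show how the ISRE letters stand in the classic targets, with the matches in capitals. Isg15 (chr4:156200865-156200906, minus strand) carries 3 overlapping matches, 57 to 69 bases before its start, and Ifit1 (chr19:34640775-34640823, plus strand) carries a pair, 76 and 95 bases before. Ifit3 (chr19:34583363-34583426) and Ifit3b (chr19:34607759-34607822, both plus strand), neighbours on chromosome 19, share the same 64 bases. Reads that fit both of these near-identical copies may have been set aside as aligned to several places. Counts of Ifit3 and Ifit3b are uncertain for that reason, and their values are therefore given together.
Isg15: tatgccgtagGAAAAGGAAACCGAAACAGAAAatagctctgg
Ifit1: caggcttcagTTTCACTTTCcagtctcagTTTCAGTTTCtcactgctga
Ifit3: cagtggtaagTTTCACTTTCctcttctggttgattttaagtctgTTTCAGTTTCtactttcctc
Ifit3b: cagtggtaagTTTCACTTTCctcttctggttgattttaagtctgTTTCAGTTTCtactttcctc

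SSCs were first compared with OPCs of the same genotype, to place the set along the lineage. Values are counts normalized over all 17 libraries with DESeq2's size factors, and calls are those of edgeR's quasi-likelihood test, with the adjusted p (Benjamini-Hochberg) under 0.05 and a change of 1.5-fold or more. The set lay higher in SSCs: 35, 32 and 26 of the 37 log2 fold changes were above 0 in WT, +/1013 and 1013/1013 (of all genes, 55.4%, 48.4% and 41.8%), and the median was 1.23, 1.27 and 1.02 (1.11 with genes at the limit of detection set to their bound), against 0.17, 0.00 and -0.20 over all genes. SSC and OPC libraries did not overlap, SSCs being higher, for 19 (51.4%), 18 (48.6%) and 15 (40.5%) members, against 21.7%, 17.1% and 17.7% of genes, and lower in SSCs for 0, 0 and 1, against 16.3%, 18.1% and 22.7%. The called members were fewer: 1 of 37 in WT (2.7%, against 5.55% of genes), 5 in +/1013 (13.5%, against 6.44%) and 6 in 1013/1013 (16.2%, against 6.94%). None was called lower by edgeR, where 5.86%, 6.02% and 6.12% of genes were. At an unadjusted p under 0.05, 8, 15 and 10 members were higher (of genes, 14.7%, 13.9% and 13.5%) and 0 lower (12%, 13.6% and 14.8%). DESeq2 called 7, 11 and 7 members higher (of genes, 10.4%, 11.3% and 11.8%) and 0, 0 and 1 lower (10.7%, 12.7% and 15.6%), the last being Oas2, which was at or near 0 in both cell types. In bulk samples, fewer expressing cells and less RNA per cell cannot be told apart. Summed dissociation-stress genes spanned 4660 to 22129 CPM in OPCs and 14932 to 22151 CPM in SSCs, and their part in the differences was not tested.

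Stat2, the transducer of type I interferon signals, was the only member called in WT. Its normalized counts were 713, 506 and 204 in WT OPCs and 1816, 1875 and 2384 in WT SSCs, all SSC libraries being above all OPC libraries. The log2 fold change was 2.11 (SE 0.51, edgeR adjusted p = 0.0161). It missed the threshold without WT OPC library 2 (adjusted p = 0.0539 by edgeR) or library 3 (0.054), and without the leukocyte-rich libraries (1.61, edgeR adjusted p = 0.0611). Mx2 had no count in any OPC library and stood at 126, 143 and 43.4 in WT SSCs, at least 34.4-fold higher against 3 counts per library (adjusted p = 0.0572), and Oas2 likewise stood at 54.6, 131 and 298, at least 53.2-fold higher (edgeR adjusted p = 0.0797). Without the leukocyte-rich WT SSC library 3 the bound of Oas2 was 30.7-fold and that of Mx2 44.5-fold.

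Ifitm3 was called in both mutant genotypes. It had 10454, 3967 and 2501 normalized counts in +/1013 OPCs and 42086, 31782 and 29567 in +/1013 SSCs, a log2 fold change of 2.66 (SE 0.49, edgeR adjusted p = 0.00291). In 1013/1013 it had 3588, 5698 and 2606 in OPCs and 39521 and 25878 in SSCs (3.07, SE 0.52, adjusted p = 0.00201). The lowest mutant SSC library was above the highest OPC library of any genotype. In WT, with 7298, 3500.0 and 6745 in OPCs and 13652, 17194 and 11117 in SSCs, the groups did not overlap either, and the log2 fold change was 1.29 (SE 0.47, edgeR adjusted p = 0.0939). The Ifitm3 calls in both mutants held under every alternative run and without any single library.

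Ifi27, the second gene by level in SSCs, was also called in both mutants. It had 6245, 4811 and 5360.3 normalized counts in +/1013 OPCs and 10065, 10152 and 9082 in +/1013 SSCs (log2 fold change 0.89, SE 0.21, edgeR adjusted p = 0.0126). In 1013/1013 it had 5104, 3826 and 5614 in OPCs and 10968 and 8307 in SSCs (1.02, SE 0.23, adjusted p = 0.0101). Mx2 stood at 0, 248 and 268 in +/1013 SSCs and 567 and 57.3 in 1013/1013 SSCs, against 0 in OPCs. That is at least 59.5-fold and at least 109-fold higher (edgeR adjusted p = 0.0448 and 0.0382), although +/1013 SSC library 1 had no count. The second bound rests on 1013/1013 SSC library 1 and was 20.1-fold without it.

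Parp9 and Ddx58 were called in +/1013 alone. Parp9, which encodes a partner of the ubiquitin ligase DTX3L in interferon signalling, had 464, 682 and 297 in OPCs and 1319, 1296 and 1265 in SSCs (log2 fold change 1.48, SE 0.41, edgeR adjusted p = 0.0303). Ddx58, the gene of the RNA sensor RIG-I, had 497, 532 and 769 in OPCs and 1016, 899 and 1686 in SSCs (1.06, SE 0.30, adjusted p = 0.032). In 1013/1013 Ddx58 stood the other way, with all SSC libraries (756 and 772) below all OPC libraries (841, 953 and 876) and a log2 fold change of -0.19 (SE 0.33, edgeR adjusted p = 0.739). It was the single member in which SSC libraries were all lower, against 22.7% of genes.

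Gbp2, Xaf1 and Bst2 were called in 1013/1013 alone. Gbp2, a guanylate-binding GTPase that attacks the vacuoles of microbes, had 1049, 517 and 319 in OPCs and 3833 and 2524 in SSCs (log2 fold change 2.35, SE 0.69, edgeR adjusted p = 0.0379). Xaf1, a pro-apoptotic XIAP-binding protein, had 168, 115 and 124 in OPCs and 602 and 482 in SSCs (2.02, SE 0.50, adjusted p = 0.018). Bst2 had 424, 713 and 545 in OPCs and 1646 and 1039 in SSCs (1.28, SE 0.38, edgeR adjusted p = 0.04). That a member passed in a genotype and missed in another does not show that the genotypes differ, which is tested further on.

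Most of these calls were lost when a single library was left out. In +/1013 the call of Mx2 was lost without OPC library 1, 2 or 3 or SSC library 2 or 3 (edgeR adjusted p from 0.0863 to 0.112), that of Parp9 without OPC library 1 or 3 or SSC library 1, 2 or 3 (0.0622 to 0.121), that of Ddx58 without OPC library 1 or 2 or SSC library 3 (0.1 to 0.142) and that of Ifi27 without OPC library 2 or 3 (0.0666 and 0.0536). In 1013/1013 the call of Mx2 was lost without OPC library 1, 2 or 3 or SSC library 1 (0.0759 to 0.14) and that of Gbp2 without OPC library 2 or 3 or SSC library 1 (0.0908 to 0.193). Xaf1 was lost without the same 3 libraries as Gbp2 (0.0514 to 0.0959), Bst2 without OPC library 1 or 3 or SSC library 1 (0.0928 to 0.292), and Ifi27 without SSC library 1 (0.113).

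By role, the IFIT genes, GTPases and ISG15 system lay above 0 in all 3 genotypes (4 of 4, 5 of 5 and 2 of 2 members), and the IFIT genes at a median log2 fold change of 1.74, 1.76 and 1.65. Of the OAS family, 4 of 5 members lay above 0 in WT and in +/1013, and 0 of 5 in 1013/1013, where Oas2 did not exceed 3 counts in any library of either cell type and 1 OPC library is leukocyte-rich. In WT, the medians were 1.35 for members with the ISRE letters (12 of 13 above 0), 0.90 for those with a promoter entry but no match (13 of 14) and 1.30 for the 10 with no promoter entry (10 of 10). In +/1013 and 1013/1013 the medians were 1.68 and 1.02 with the letters, 0.98 and 0.67 without, and 2.05 and 1.63 with no entry. Whether the members with no entry hold the letters is not known. The difference between members with and without the letters was not tested. Without the 3 leukocyte-rich libraries the medians over the members were 1.15 in WT, 1.30 in +/1013 and 1.63 in 1013/1013, with 0, 5 and 2 members called. In +/1013 Oas1a was then called (edgeR adjusted p = 0.0445) and Mx2 missed the threshold (0.0565). In 1013/1013 Ifitm3 and Ifi27 were called, and Gbp2 (log2 fold change 2.22, edgeR adjusted p = 0.0903), Xaf1 (1.91, 0.0654), Bst2 (1.49, 0.0521) and Mx2 (0.0923) missed it.

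**Figure D3:**
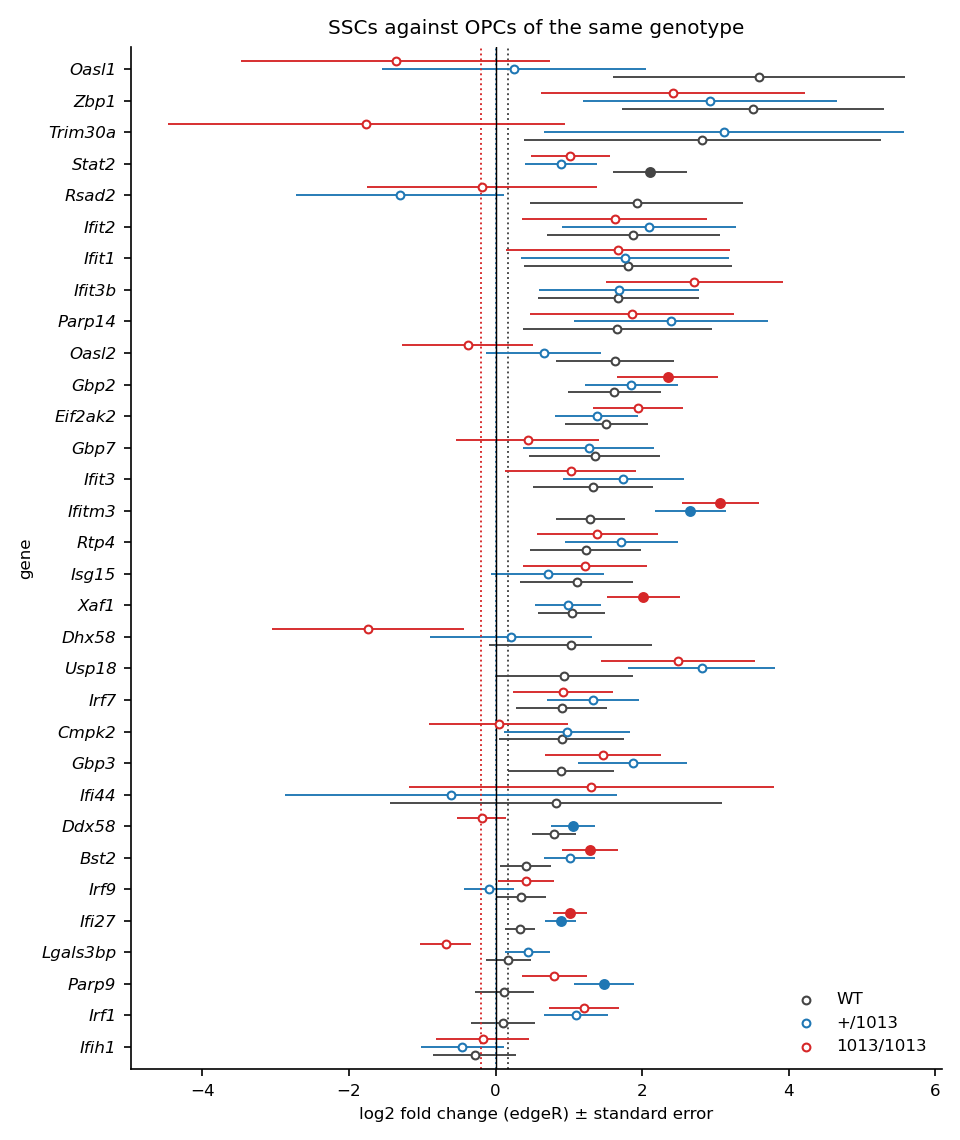
Log2 fold change of 32 members in SSCs against OPCs within each genotype (edgeR), with filled points for members called and open points for the others, and dotted lines at the median of all genes. Most members lie to the right of 0 in each genotype, with medians of 1.23, 1.27 and 1.02 over the 37 genes (Oas1a, Oas2, Oas3, Mx1 and Mx2 are left out because a group lay at or near 0).

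The effect of the Cxcr4 mutation was compared within SSCs, with counts normalized over the 8 SSC libraries. No member passed edgeR's test in +/1013 against WT, where 0.068% of genes were called higher and 0.00566% lower. At an unadjusted p under 0.05, 5 members were higher (13.5%, against 7.65% of genes) and 1 lower (2.7%, against 9.68%), and DESeq2 called 4 members, Irf1, Gbp2 and Ifitm3 higher (3.26% of genes) and Stat2 lower (5.07%). The libraries did not overlap for 7 members that were higher in +/1013 (18.9%, against 12.6% of genes) and 1 that was lower (2.7%, against 18.7%). Of the 37 log2 fold changes 19 were above 0 (44.8% of genes), with a median of 0.08 against -0.11. Without WT library 3, the leukocyte-rich one, the median was 0.37.

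Leukocyte transcripts differed between the SSC genotypes also outside that library. Their summed level was 406 to 14759 CPM in WT, 45.8 to 197 CPM in +/1013 and 589 to 1113 CPM in 1013/1013, so that all WT libraries were above all +/1013 libraries. Of the 18 leukocyte genes tested, edgeR called 0 in any comparison. In +/1013 against WT, 15 were lower at an unadjusted p under 0.05 by edgeR (9.68% of all genes). DESeq2 called 15 lower (5.07%), and 13 were lower without overlap (18.7%). In 1013/1013 against WT these counts were 3, 3 and 4 lower (9.89%, 6.63% and 26% of all genes), the last being below the share of genes. In 1013/1013 against +/1013 they were 7, 5 and 8 higher (2.53%, 0.338% and 7.14%). The log2 fold changes of the leukocyte genes had medians of -4.88, -2.57 and 2.98 in the 3 comparisons. The part of leukocyte RNA in the genotype differences of the members was not tested.

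Ifitm3 had 13635, 17295 and 11349.7 normalized counts in WT SSCs, 40816, 30857 and 28613 in +/1013 SSCs and 38825 and 25049 in 1013/1013 SSCs. All 5 mutant libraries stood above all 3 WT libraries. The log2 fold change was 1.31 in +/1013 (SE 0.26, edgeR adjusted p = 0.114, DESeq2 0.000536) and 1.23 in 1013/1013 (SE 0.28, edgeR adjusted p = 0.12, DESeq2 0.00403). Irf1, a factor that also drives antigen presentation genes, had 9233, 10584 and 10784 in WT, 23287, 35448 and 17132 in +/1013 and 11716 and 28279 in 1013/1013. Its lowest mutant library was close to the highest WT library. The log2 fold changes were 1.37 (SE 0.38, edgeR adjusted p = 0.165) and 1.03 (SE 0.41, adjusted p = 0.252), and the second fell to 0.18 without 1013/1013 library 2.

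Gbp2 had 1828, 1962 and 1775 in WT, 3750.1, 4046 and 3366 in +/1013 and 3766 and 2443 in 1013/1013, again with no overlap between WT and mutant libraries. The log2 fold change was 1.07 (SE 0.20, edgeR adjusted p = 0.105, DESeq2 0.000869) in +/1013 and 0.80 (SE 0.21, edgeR adjusted p = 0.152, DESeq2 0.039) in 1013/1013. Usp18, which removes ISG15 from proteins and damps IFNAR2, had 365, 435 and 526 in WT, 1112, 924 and 894 in +/1013 and 1119 and 459.9 in 1013/1013. The +/1013 libraries were all above WT (1.21, SE 0.38, edgeR adjusted p = 0.192), and 1 of the 2 1013/1013 libraries lay within the WT range. Ifi27, Parp9 and Isg15 were the other members with no overlap in +/1013, at log2 fold changes of 0.57, 0.54 and 0.40.

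Stat2 went the other way. It had 1814, 1886 and 2434 normalized counts in WT SSCs, 604, 801 and 863 in +/1013 SSCs and 801 and 929 in 1013/1013 SSCs. No mutant library reached the WT range. The log2 fold change was -1.37 in +/1013 (SE 0.24, edgeR adjusted p = 0.094, DESeq2 8.03e-06) and -1.18 in 1013/1013 (SE 0.28, edgeR adjusted p = 0.124, DESeq2 0.00123). Without the leukocyte-rich WT library it was -1.23 in +/1013 and -1.04 in 1013/1013. Both genotypes were compared with the same 3 WT libraries, so that their values are not independent of each other.

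**Figure D4:**
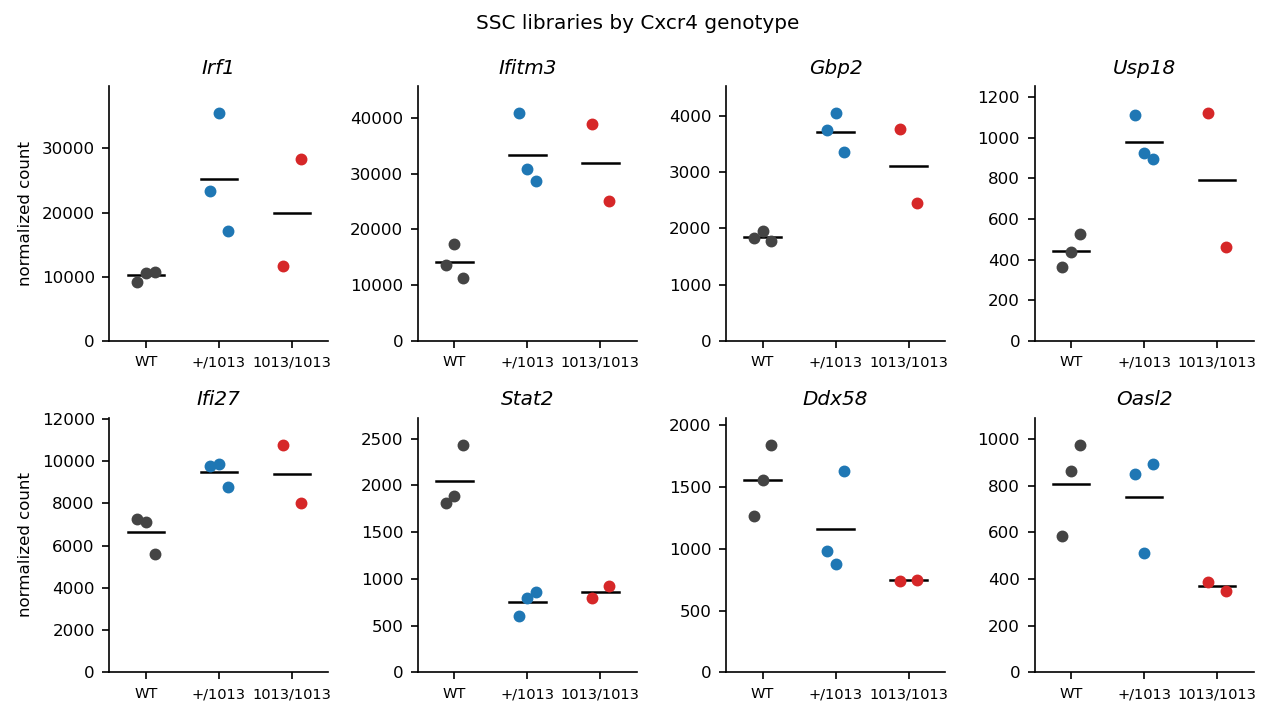
Normalized counts of single members in the 8 SSC libraries by genotype, with 1 point per library and a bar at the group mean. Mutant libraries lie above all WT libraries for Ifitm3, Irf1 and Gbp2 and below them for Stat2.

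In 1013/1013 against WT SSCs no member and no gene of the 17659 tested was called (0% and 0%) by edgeR. At an unadjusted p under 0.05, 4 members were higher and 4 lower (10.8% each, against 8.37% and 9.89% of genes). DESeq2 called 5 members, Ifitm3 and Gbp2 higher (4.54% of genes) and Stat2, Ddx58 and Oas2 lower (6.63%). The libraries did not overlap for 5 higher (13.5%, against 15% of genes) and 6 lower members (16.2%, against 26%). The median log2 fold change was -0.42 with 16 of 37 above 0, against -0.23 and 42.1% for all genes, and 0.08 without WT library 3.

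The 6 members below WT without overlap were Stat2, Ddx58, Dhx58, Oas2, Oasl2 and Trim30a, and the 5 above were Ifitm3, Irf1, Gbp2, Ifi27 and Parp9. Oas2 had 54.5, 132 and 304 in WT, 0, 0 and 88 in +/1013 and 0 in both 1013/1013 libraries, at least 51.9-fold lower against 3 counts per library (edgeR adjusted p = 0.249). Its highest value was in the leukocyte-rich WT library, and without that library the bound was 29.6-fold. Trim30a, which restrains Toll-like receptor signals, had 226, 333 and 645 in WT, 353, 357 and 289.9 in +/1013 and 0 and 126 in 1013/1013 (-2.60 against WT, SE 1.63, edgeR adjusted p = 0.407). Dhx58, the RIG-I-like sensor LGP2, had 195, 208 and 594 in WT, 140.1, 190.2 and 341 in +/1013 and 7.5 and 133 in 1013/1013 (-2.17, SE 1.21, adjusted p = 0.358). Without the leukocyte-rich WT library they stood at -2.07 and -1.44. For both genes 1013/1013 library 1 was far below library 2, and the standard errors are accordingly wide. Ddx58 had 1265, 1553 and 1840.2 in WT and 743 and 747 in 1013/1013 (-1.0, SE 0.34, edgeR adjusted p = 0.203), and Oasl2, an OAS-like protein, 586, 864 and 976 in WT and 388 and 351 in 1013/1013 (-1.07, SE 0.40, adjusted p = 0.227).

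The count of calls in 1013/1013 SSCs depended on its second library. With library 2 left out, and the lone library 1 assumed to vary like the other groups, edgeR called 9 members against WT: Ifitm3, Gbp2 and Usp18 higher and Stat2, Dhx58, Ifit1, Ifit2, Gbp7 and Trim30a lower. It called 2931 genes in that setting (3.50% of those tested higher and 11.3% lower). With library 1 left out, it called 0 members.

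**Figure D5:**
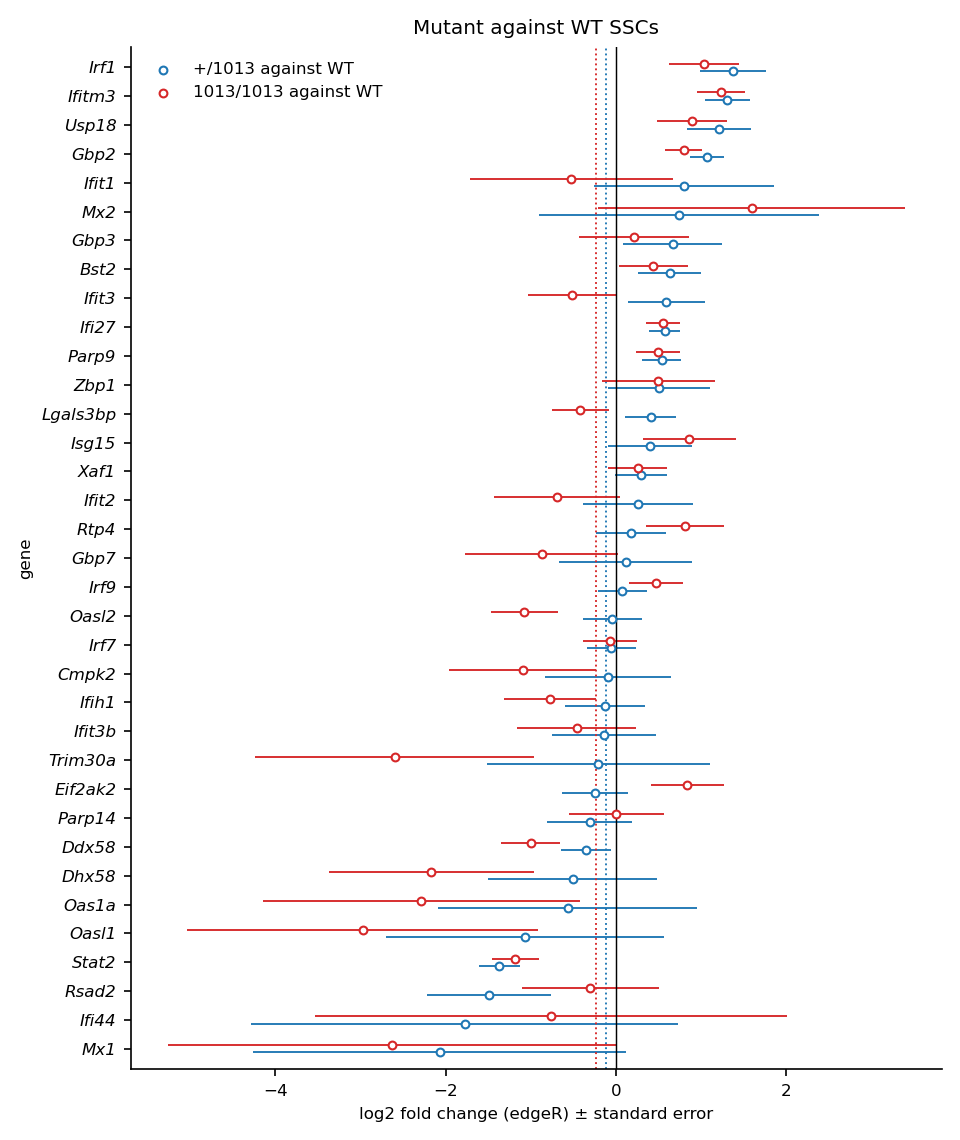
Log2 fold change of 35 members in each mutant genotype against WT within SSCs (edgeR, horizontal). Open points stand for members not called, and dotted lines for the median of all genes. Oas2 and Oas3 are left out because a group lay at or near 0. All points are open. Ifitm3, Irf1 and Gbp2 lie to the right of 0 and Stat2 to the left in both comparisons with WT.

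Between the mutant genotypes, 1013/1013 and +/1013 SSCs, 0 members and 0 genes were called (0% and 0%) by edgeR and 0 members by DESeq2 (0.338% of genes higher and 0.72% lower). At an unadjusted p under 0.05 there was 1 member higher (2.53% of genes) and 2 lower (3.01%). Libraries did not overlap for 2 higher (5.41%, against 7.14% of genes) and 6 lower members (16.2%, against 8.78%). The median log2 fold change was -0.32 with 10 of 37 above 0, against -0.05 and 45.1% of genes. Rsad2, which encodes viperin, had 263, 87.7 and 278 in +/1013 and 464 and 498 in 1013/1013 (1.19, SE 0.79, edgeR adjusted p = 0.793). Eif2ak2, the kinase PKR that halts translation on double-stranded RNA, had 519.5, 357 and 602 in +/1013 and 1434 and 679.6 in 1013/1013 (1.09, SE 0.43, adjusted p = 0.788). In each, both 1013/1013 libraries were above all +/1013 libraries.

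Ifit3 and Ifit3b, the IFIT pair that share a promoter stretch, belong to a family that binds foreign RNA. Ifit3 had 534, 637 and 1370.2 in +/1013 and 315 and 474 in 1013/1013, and Ifit3b 136, 235 and 292 in +/1013 and 226 and 130.4 in 1013/1013. Their log2 fold changes were -1.11 (SE 0.53, edgeR adjusted p = 0.788) and -0.32. Ifit3 did not overlap between the groups. Trim30a stood at -2.39 (SE 1.62, edgeR adjusted p = 0.799) and Dhx58 at -1.66 (SE 1.18, adjusted p = 0.814). Without 1013/1013 library 2, which leaves 1 library in that group, Ifit1, Ifit2, Gbp7 and Trim30a were called lower, among 1812 genes called (0.941% of those tested higher and 8.23% lower).

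In OPCs, 33 members were tested, since Mx1, Mx2, Oas2 and Oas3 had too few counts, and edgeR called 0 in +/1013 against WT, in 1013/1013 against WT and in 1013/1013 against +/1013. Of all 16207 genes, 0.00617% were called in 1013/1013 against WT, all lower, and 0% in the other comparisons. At an unadjusted p under 0.05 there was 1 member lower in +/1013 against WT (1.04% of genes, 1.01% higher), 0 in 1013/1013 against WT (1.86% higher and 1.52% lower) and 1 higher in 1013/1013 against +/1013 (1.7%, 1.47% lower). DESeq2 called 0 members in each, and 0.114%, 0.152% and 0.259% of genes higher and 0.253%, 0.114% and 0.114% lower. Of the 33 log2 fold changes 18, 13 and 13 were above 0 (of genes, 49.4%, 50.9% and 52.2%). The medians were 0.04, -0.10 and -0.08, and they turned with single libraries: without +/1013 library 1, the medians of both comparisons with +/1013 were -0.40 and 0.46, and without WT library 1 that of 1013/1013 against WT was 0.40. Without the leukocyte-rich libraries the 3 medians were 0.09, -0.35 and -0.60.

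A single member did not overlap in each OPC comparison, and 0 members on the other side, where 2.7%, 4.13% and 3.49% of genes did not. Oas1a had 12.3, 12.7 and 309.8 normalized counts in WT, 0, 1.17 and 0.852 in +/1013 and 22.4, 296 and 0 in 1013/1013 (edgeR adjusted p = 1 for +/1013 against WT), where no +/1013 library held more than 1 count. It was the single member lower without overlap (3.03% of members, against 2.52% of genes), with a high value in the leukocyte-rich libraries. Xaf1 had 224, 177 and 298 in WT and 172, 119 and 126 in 1013/1013 (-0.74, SE 0.58, edgeR adjusted p = 1), where 3.52% of genes were lower without overlap, and stood at -0.43 without the leukocyte-rich libraries. Ddx58 had 515, 543 and 779 in +/1013 and 863, 990.3 and 886 in 1013/1013 (0.57, SE 0.29, adjusted p = 0.999), where 3.73% of genes were higher without overlap. Shares of members this close to those of genes say nothing particular to the set.

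Ifitm3, which stood above WT in all mutant SSC libraries, overlapped between genotypes in OPCs, with 7613, 3576 and 6793 in WT, 10844, 4044 and 2534 in +/1013 and 3681, 5921 and 2638 in 1013/1013. Whether the mutation acted differently in the cell types was tested as the genotype effect in SSCs minus that in OPCs, over all 17 libraries. No member passed edgeR's test, where 0.0692% of genes were called higher and 0.0148% lower for +/1013, and 0.119% and 0.0346% for 1013/1013. At an unadjusted p under 0.05, 2 members were higher (4.6% of genes) and 0 lower (6.04%) for +/1013, and 2 higher (5.9%) and 2 lower (9.11%) for 1013/1013. DESeq2 called 0 members for +/1013 (1.19% of genes higher, 1.49% lower) and 1 for 1013/1013 (Oas2, lower, with 2.87% of genes higher and 3.97% lower). Log2 differences above 0 numbered 20 of 37 in each (45.2% and 39.9% of genes). For Ifitm3 the difference was 1.37 (SE 0.65, edgeR adjusted p = 0.482) for +/1013 and 1.77 (SE 0.69, adjusted p = 0.274) for 1013/1013. It was 1.36 (SE 0.57, edgeR adjusted p = 0.437) for Parp9 in +/1013 and -0.99 (SE 0.45, adjusted p = 0.322) for Ddx58 in 1013/1013.

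The rest of the pathway was read from lists of receptors, transducers, regulators, sensors, antigen presentation genes and 57 further interferon-stimulated genes. In the 3 SSC genotype comparisons edgeR called 0 of any of these lists. Of the further genes 56 were tested there. At an unadjusted p under 0.05 by edgeR, 10 were higher and 5 lower in +/1013 against WT (of all genes, 7.65% and 9.68%). These counts were 7 and 5 in 1013/1013 against WT (8.37% and 9.89%), and 0 and 2 in 1013/1013 against +/1013 (2.53% and 3.01%). DESeq2 called 6 higher and 1 lower in +/1013 against WT (10.7% and 1.79%, against 3.26% and 5.07% of genes). In 1013/1013 it called 4 and 3 against WT (7.14% and 5.36%, against 4.54% and 6.63%). Against +/1013 it called 0 and 1 (0% and 1.79%, against 0.338% and 0.72%). DESeq2 also called the transducer gene Tyk2, the phosphatase gene Ptpn6, Trim25 and Adar lower and Myd88 and Psme2 higher in +/1013 against WT. In 1013/1013 against WT it called Ifnar2, Myd88 and Psme2 higher and Adar and Nlrc5 lower. These were among 6 receptor, 9 transducer, 6 regulator, 15 sensing and 16 antigen presentation genes tested, with the shares of all genes as above. Ifnar2, a chain of the type I interferon receptor, had 2747, 3027 and 2874 normalized counts in WT SSCs, 4047, 4338 and 3624 in +/1013 SSCs and 5454 and 5081 in 1013/1013 SSCs. The 3 groups did not overlap, and against WT the log2 fold change was 0.54 (SE 0.15, edgeR adjusted p = 0.163) and 0.93 (SE 0.16, adjusted p = 0.0843). Ifnar1, the other chain, had 4126, 4158 and 5178 in WT, 4284, 3241 and 3897 in +/1013 and 1291 and 3351 in 1013/1013 (-0.17 and -0.89, the latter with edgeR adjusted p = 0.275). Irf3, which acts below the sensors, had 2261, 2708 and 1498 in WT, 1795, 1118 and 1956 in +/1013 and 1447 and 1338 in 1013/1013. Irf3 overlapped between WT and +/1013, and both 1013/1013 libraries lay below the WT range.

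Between SSCs and OPCs, 6 of the 57 further interferon-stimulated genes were called higher in WT, 11 in +/1013 and 8 in 1013/1013 (10.5%, 19.3% and 14%, against 5.55%, 6.44% and 6.94% of genes), and 0 lower. Above 0 were 51, 45 and 35 of the 57 (89.5%, 78.9% and 61.4%, against 55.4%, 48.4% and 41.8% of genes). In WT the 3 with the largest change against a group above the limit of detection were Ifi205 (log2 fold change 7.06, SE 0.96), Ifi211 (6.46, SE 1.19) and Slfn5 (4.27, SE 0.72), with adjusted p of 0.000488, 0.00346 and 0.00199 by edgeR, and Apol9a, at the limit in OPCs, was at least 58.3-fold higher. Ifi205 and Ifi211 belong to the p200 family of nuclear DNA-binding proteins, and Slfn5 to the schlafens. The kinase gene Jak1 was higher in SSCs of all 3 genotypes (0.94, 0.82 and 0.81), as was Psme2, a proteasome activator subunit used in antigen processing (1.23, 2.51 and 2.75). Stat3, Tbk1 and Ikbke were called higher in WT, Tmem173, which encodes STING, in +/1013, and the receptor chain Il10rb in 1013/1013. By list, edgeR called 0, 0 and 1 of 6 receptors higher in WT, +/1013 and 1013/1013, and 2, 1 and 1 of 9 transducers. It called 0 of 6 regulators in each, 2, 1 and 0 of 15 sensing genes, and 1, 3 and 2 of 16 antigen presentation genes. In WT the medians of these lists were, in that order, -0.11, 0.45, 0.17, 0.67 and 0.02, against 0.17 over all genes. The class I gene H2-T23 was higher in both mutants (2.38 and 2.48), and H2-Q7 was lower in +/1013 (-3.01, edgeR adjusted p = 0.0296).

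Exons of 12 members overlap those of another gene. The share of exon bases was 13.9% for Rtp4 (with Gm45338), 11.4% for Gbp7 (Gm43802) and 9.4% for Parp9 (Dtx3l, on the opposite strand). The strand setting of the counting is not given in the sources used here, so reads of such pairs cannot be told apart. Oas1a, Gbp3, Gbp7 and Trim30a have related genes in their gene clusters, whose sequences were not compared. Their reads may be uncertain in the same way as those of Ifit3 and Ifit3b.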

How the data were processed

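Sorted SSCs and OPCs of 3 Cxcr4 genotypes gave 17 paired-end SMART-Seq v4 libraries. Per the study's methods and the submitters' processing notes, the authors checked reads with FastQC, aligned them to mm10 with STAR and counted reads per gene with HTSeq. The deposited values are raw counts per gene, with no normalization. Versions, annotation release and HTSeq settings are not given in the sources used here. Of 55335 gene identifiers, 55154 matched GENCODE M21 for symbols and exon lengths. Rows that name no gene stayed out of library sizes and tests. The lowest depth was 44217695 counts, and the limits of detection cover counting error only.

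The 37 members, the pathway and marker lists and the tests were chosen with earlier results of these data known. Genotypes of a cell type entered 1 quasi-likelihood fit of edgeR 4.0.16 (glmQLFit with legacy = TRUE, filterByExpr, TMM, no covariates; R 4.3.3, limma 3.58.1), and comparisons between cell types used all 17 libraries. The standard error is the absolute log2 fold change divided by the square root of F, and p-values were adjusted over all genes tested (Benjamini-Hochberg). Normalized counts are counts divided by DESeq2 size factors within a cell type, or over all 17 libraries for comparisons between cell types. Members with full values were those called (up to 6 per direction) and, per genotype comparison, up to 3 with the largest rise and 3 with the largest fall that did not overlap and reached a mean of 1 CPM. Gbp2, Ifi27, Parp9, Isg15, Oasl2 and Ddx58 in SSCs, and Mx2 and Oas2 in WT, were added after their values were seen. Alternatives were DESeq2 1.42.0, other normalizations, filters (none, or at least 10 counts in every library), fits, thinning, a replicate block and leaving out libraries. The scripts were tested on simulated data. Omission of the 3 leukocyte-rich libraries was chosen after seeing the data. A gene of the pathway list is not reported here.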

Additional observations from a re-analysis of the deposited data

How the results depend on the processing

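The log2 fold changes of the 30 named pairs of a member and a comparison kept their sign in each alternative run, as did 214 of all 395 pairs. The named pairs were chosen from these same data as called or without overlap. Their stable sign follows largely from that choice and is no separate support. The medians over the members did not all keep their sign. For 1013/1013 against WT SSCs the median of -0.42 became 0.06 with at least 10 counts in every library. It became 0.06 with a replicate block and 0.08 without WT library 3. For the 3 OPC comparisons leaving out a library gave medians from -0.67 to 0.46. DESeq2 called 4 members in +/1013 against WT SSCs, 5 in 1013/1013 against WT SSCs, 7 in WT and 11 in +/1013 SSCs against OPCs, and 1 for the 1013/1013 effect in SSCs minus OPCs. In WT SSCs against OPCs, the count of 1 became 2 with at least 10 counts in every library, 3 with bias-adjusted quasi-likelihood, 4 with only the groups compared and 0 without the leukocyte-rich libraries. It became 3 without a filter in +/1013, and in 1013/1013 it became 1 with only the groups compared and 2 without the leukocyte-rich libraries. Leaving out each library in turn gave 0 to 9 members in 1013/1013 against WT SSCs and 0 to 4 in 1013/1013 against +/1013 SSCs (the highest without 1013/1013 library 2). It gave 0 to 3 in WT, 2 to 4 in +/1013 and 1 to 7 in 1013/1013 for SSCs against OPCs. Each other count of calls stayed within 1.5 times. The causes of these moves were not tested, and leaving out libraries also makes their number smaller.

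The sources used here do not say whether libraries with the same replicate number belong together, and their correlations do not decide it. Correlations of same-numbered libraries were -0.21 to 0.25 in OPCs, -0.07 to 0.10 in SSCs and -0.02 to 0.25 between the cell types. Those of other pairs were -0.28 to 0.32, -0.10 to 0.11 and -0.21 to 0.11. In 10 of 18, 5 of 16 and 9 of 17 cases the best match had the same number. With a replicate block, 2 members were called in WT SSCs against OPCs, and the other counts stayed within 1.5 times, but other members were called: Gbp2 was added in WT (edgeR adjusted p = 0.0154) and +/1013 (0.0074), and Mx2 in +/1013 (0.107) and Mx2 and Bst2 in 1013/1013 (0.109 and 0.0794) missed the threshold. Oas2, Oas3, Mx1 and Mx2 lay at or under 3 counts in most OPC libraries. OPC libraries held more counts on genes than SSC libraries, and the part of depth in these low counts was not tested.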
